A study of Mus musculus with 2 samples.

Results

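The 10 genes whose products mark granulocyte and monocyte progenitors were followed in 2 RNA libraries from mouse Lin- Sca-1+ c-Kit+ (LSK) bone marrow cells, a fraction enriched for blood stem cells and early progenitors. They were taken by name as 10 of the 39017 genes in the deposited count table: Mpo, Elane, Prtn3, Ctsg, Ms4a3, Ly6c2, F13a1, Ltf, Ngp and Lyz2. All 10 had at least 20 counts summed over both libraries, the minimum for giving a ratio, and Ms4a3 was nearest to that minimum with 29. RNA of 12 pooled wild-type (WT) mice made 1 library and RNA of 6 pooled miR-146a-/- mice the other; the latter lack a microRNA that restrains NF-kB signalling. Both pools were C57BL/6J in background and 10 to 14 weeks of age, and no other allele or treatment is given for either. With 1 library per genotype no difference has a replicate check, so each statement compares these libraries and no p-value is given.

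Granulocytes store their antimicrobial proteins in granules that are filled in order as the cells mature. Primary (azurophil) granules receive myeloperoxidase and the serine proteases at the promyelocyte stage, and their mRNAs are already found in granulocyte and monocyte progenitors. Secondary granules receive lactoferrin and neutrophilic granule protein at the later myelocyte stage, when the genes of the primary granules are being shut off. In the LSK fraction, transcripts of primary granule genes are read as early priming towards the myeloid lineages, whereas those of late granule genes belong to cells well beyond it.

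The microRNA missing from the second library is printed with its seed, bases 2 to 8, in capitals, because the genes studied here were searched for matches to it. Its gene lies on chromosome 11, and the mature strand spans 43374435 to 43374456 on the minus strand (RefSeq, GRCm38.p6).
miR-146a-5p: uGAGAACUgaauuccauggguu
The longest annotated 3' untranslated regions of the 10 genes run from 78 bases in Ctsg to 1587 in F13a1. A match to the 7-base seed, the site AGTTCTC, was found in 0 of the 10. A match to its first 6 bases, GTTCTC, was found in 1, Ly6c2.

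RefSeq lists a start site for all 10 genes, and the 250 bases before it were searched on both strands for 4 motifs of myeloid promoters. The windows of 3 primary granule proteases and both late granule genes are printed 5' to 3', because both groups of granule genes are compared below. Bases inside an annotated exon were left out, and capitals mark a motif. Elane is from chr10:79886062-79886246, Prtn3 from chr10:79879417-79879613 and Ctsg from chr14:56102575-56102824 on the minus strand. Ltf is from chr9:111019042-111019270 and Ngp from chr9:110419558-110419746 (GRCm38.p6), all 4 others on the plus strand.
Elane: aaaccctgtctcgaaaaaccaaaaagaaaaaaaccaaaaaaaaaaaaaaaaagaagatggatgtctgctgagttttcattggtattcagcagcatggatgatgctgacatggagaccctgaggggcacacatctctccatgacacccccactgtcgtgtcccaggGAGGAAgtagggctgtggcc
Prtn3: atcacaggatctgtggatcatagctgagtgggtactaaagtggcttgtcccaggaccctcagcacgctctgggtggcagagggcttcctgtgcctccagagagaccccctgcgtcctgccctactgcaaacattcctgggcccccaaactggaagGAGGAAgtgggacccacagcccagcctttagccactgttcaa
Ctsg: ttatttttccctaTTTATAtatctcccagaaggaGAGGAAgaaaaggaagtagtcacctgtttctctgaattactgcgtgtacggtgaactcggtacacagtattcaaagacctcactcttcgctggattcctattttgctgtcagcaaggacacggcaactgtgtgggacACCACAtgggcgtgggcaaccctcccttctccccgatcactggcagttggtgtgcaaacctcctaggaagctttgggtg
Ltf: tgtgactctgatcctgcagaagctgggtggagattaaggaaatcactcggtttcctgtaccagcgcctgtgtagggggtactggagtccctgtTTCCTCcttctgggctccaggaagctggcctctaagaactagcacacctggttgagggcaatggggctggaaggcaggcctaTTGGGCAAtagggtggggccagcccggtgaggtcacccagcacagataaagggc
Ngp: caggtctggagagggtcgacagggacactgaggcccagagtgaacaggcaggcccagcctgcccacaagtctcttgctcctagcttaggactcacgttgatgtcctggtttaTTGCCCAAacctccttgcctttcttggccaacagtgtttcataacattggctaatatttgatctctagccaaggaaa
The PU.1-type motif GAGGAA occurred in 7 of the 10 windows, against 23.3% of all 32851 windows of that length. It was present in all 4 primary granule genes, in Ly6c2, F13a1 and Ltf, and in none of Ngp, Lyz2 and Ms4a3. For Ly6c2 alone, the bases after the start used were not found in a GENCODE M21 transcript of the gene. Its window may therefore not be the promoter of the counted transcripts. The shorter ETS core GGAA was not searched on its own. The C/EBP motif TTGCNNAA occurred in 2 windows, those of Ltf and Ngp, against 9.56% of all windows. Ngp held a second copy 11 bases before its RefSeq start, in a stretch not printed. The RUNX core TGTGGT occurred in Ctsg, Ly6c2 and Lyz2 (14.0% of all windows) and TATAAA in Ctsg alone (12.4%). No 2 matches overlapped in the printed sequences. A match is a run of letters, not a shown binding site.

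Library composition and marker genes are given first, and the genotype labels were not tested against the counts. Total counts were 35069136 in WT and 22231389 in miR-146a-/-, and protein-coding genes held 81.4% and 51.5% of them. The largest single part of this difference was Gm42418, a transcript within a ribosomal RNA repeat, at 2.13% and 27.2% of counts. Levels are therefore given as CPM relative to the TMM effective library size (normalised CPM). TMM trims genes with extreme ratios, and under it the median log2 ratio of 13880 measured genes was -0.01. Scaled by total counts that median was -0.83, so all ratios below are lower under that choice. Kit and Ly6a, which encode the c-Kit and Sca-1 antigens of the sort, had 26003 and 3113 counts in WT and 12167 and 1248 in miR-146a-/-. Of 10 listed markers of LSK cells and their subsets 0 were called, against 5.35% higher and 1.53% lower of all measured genes. Their log2 ratios, 6 positive and 4 negative, ran from -0.52 for Cd48 to 0.66 for Slamf1. Of lineage genes, Cd3d, Cd3e, Cd3g, Cd8a and Alas2 had 0 counts in both libraries, which allows up to 3 counts in each. Other genes of these lists were read: Cd4 had 86 and 68 counts (log2 ratio 1.13, called higher), Hbb-bt 78 and 17 and Hbb-bs 16 and 13. The 6 B cell genes summed to 245 CPM in WT and 265 in miR-146a-/-. Of these, 3 were measured and none was called, against 5.35% higher and 1.53% lower of all measured genes. Most of that sum was Ptprc (10649 and 4144 counts), which all leukocytes express, and Cd79b had 757 and 263 counts. Ly6g, which defines mature neutrophils, had 1 in each, while Itgam, encoding the lineage antigen CD11b, had 1673 and 950. Immediate early genes were higher in miR-146a-/-, with 12 of 12 listed genes called, against 5.35% of all measured genes. Xist was also higher (log2 ratio 3.64) and all 4 listed Y-linked genes were lower. These differences go with genotype and cannot be told apart from it here, and their part in the ratios below was not tested.

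Of the 10 genes, 4 were higher in the miR-146a-/- library (Mpo, Elane, Ly6c2 and F13a1), 2 were lower (Ltf and Ngp) and 4 were neither (Prtn3, Ctsg, Ms4a3 and Lyz2). A gene was called when the whole 95% interval of its ratio, an exact Clopper-Pearson interval that covers counting error only, lay beyond 1.5-fold. By the same rule 5.35% of all 13880 measured genes passed as higher (742 genes) and 1.53% as lower (212). By total counts 140 genes were higher and 7077 lower, and of the 10 genes 1 was higher (Elane) and 3 were lower (Ltf, Ngp and Lyz2). The median log2 ratio was 0.62 for the 4 primary granule genes, of which 2 were called, 1.61 for the 2 monocyte genes and -2.09 for the 2 late granule genes. By total counts these medians were -0.20, 0.79 and -2.89. The longer lists of other early and late granule genes, described further on, had medians of -0.01 and -0.05. In RNA from a bulk population, more cells of a type and more RNA per cell cannot be told apart.

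**Figure D1:**
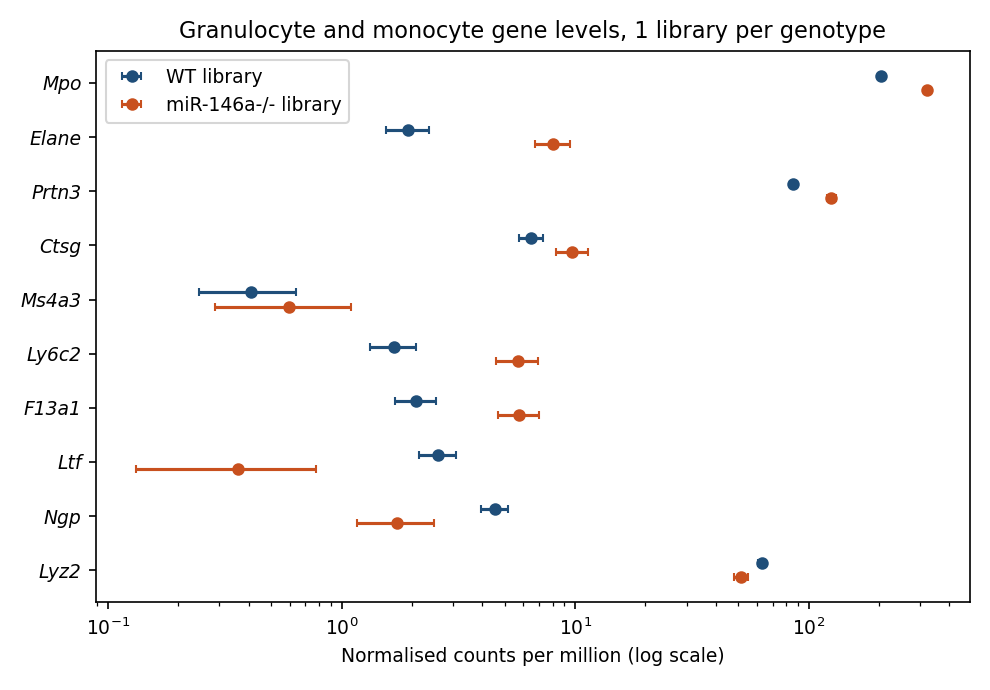
Level of each gene in the WT library (blue) and the miR-146a-/- library (orange), in normalised CPM on a log axis; bars are exact 95% Poisson intervals for counting error. Mpo sits highest in both libraries at 204 and 322, and the 2 late granule genes Ltf and Ngp lie clearly to the left in the miR-146a-/- library.

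Myeloperoxidase, the haem enzyme that makes hypochlorous acid, was the most abundant product. Mpo (chromosome 11, 87793581 to 87804413, plus strand) had 9499 WT counts and 5377 miR-146a-/- counts, or 204 and 322 normalised CPM. The miR-146a-/- library was higher by 1.58-fold (1.53 to 1.63), a log2 ratio of 0.66 (0.61 to 0.71). This interval lay just beyond the 1.5-fold limit, and the call ended when counts were scaled by protein-coding totals (0.50) or with no filter on low counts (0.59). By total counts Mpo was at -0.16. An antisense gene inside it, Gm11505, had 4 and 1 counts.

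Elane, which encodes neutrophil elastase and is mutated in human cyclic neutropenia, differed most among the primary granule genes. It spans 79886247 to 79888215 on the plus strand of chromosome 10. Its counts were 90 (WT) and 134 (miR-146a-/-), more reads in the smaller library. The normalised levels were 1.93 and 8.02 CPM, a 4.12-fold higher value in miR-146a-/- (3.15 to 5.48). The direction and the call held under every scaling tried, with a log2 ratio of 2.04 (1.66 to 2.45) that ranged from 1.23 by total counts to 2.21 after adjustment for exon length.

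Prtn3, which encodes proteinase 3 and lies 3073 bases upstream of Elane on the same strand, showed a smaller difference. It spans 79874476 to 79883174 with 4006 WT counts and 2089 miR-146a-/- counts. Its levels of 86.0 and 125 CPM gave a ratio of 1.45-fold (1.38 to 1.53), not called. Its first annotated 159 bases overlap Plppr3 on the opposite strand, with 6569 and 2385 counts, and reads there cannot be assigned because strand use is not stated.

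Ctsg encodes cathepsin G, another protease of these granules, from 56099881 to 56102574 on the minus strand of chromosome 14. It had 302 and 162 counts, or 6.48 and 9.69 CPM, a ratio of 1.49-fold (1.23 to 1.82) that was not called. By total counts Prtn3 and Ctsg were at -0.28 and -0.24, so the direction of Mpo, Prtn3 and Ctsg depended on the scaling.

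Within the primary granule group, Elane stood apart from the other members by a measure that no scaling enters. For each count of Mpo, Prtn3 and Ctsg together, Elane gave 0.00652 counts in WT and 0.0176 in miR-146a-/-. The exact conditional odds ratio was 2.69 (95% interval 2.04 to 3.57). Against its neighbour Prtn3 alone it was 2.85 (2.16 to 3.79). Among the other three the proportions differed little: the odds ratio was 1.09 (1.02 to 1.16) for Mpo over Prtn3, 1.06 (0.866 to 1.29) for Mpo over Ctsg and 1.03 (0.838 to 1.26) for Ctsg over Prtn3. Elane and Prtn3 transcripts were identical at 70.6% of aligned bases and Elane and Ctsg at 70.7%.

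Ms4a3, a membrane protein of granulocyte and monocyte progenitors that is used for their lineage tracing, was close to the detection limit. It spans 11629496 to 11640851 on the minus strand of chromosome 19. The 19 and 10 counts gave 0.408 and 0.598 CPM. The ratio of 1.45-fold had an interval from 0.609 to 3.32, so at this depth no difference was detectable in either direction, and by total counts it was at -0.26.

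The monocyte genes were both higher in miR-146a-/-. Ly6c2 encodes a chain of the Ly6C antigen that marks inflammatory monocytes and lies on chromosome 15 from 75108158 to 75111970, minus strand. Its counts were 78 (WT) and 95 (miR-146a-/-), or 1.67 and 5.68 CPM, a ratio of 3.37-fold (2.49 to 4.64). Its paralog Ly6c1 is 97.6% identical over 822 aligned transcript bases and had 24 and 23 counts, with a log2 ratio of 1.39 (0.53 to 2.30). Reads can therefore have been split between the pair, and the Ly6c2 count is uncertain. F13a1, which encodes the A chain of coagulation factor XIII and is expressed in monocytes and megakaryocytes, spans 36867178 to 37050244 on the minus strand of chromosome 13. It had 97 and 96 counts, or 2.08 and 5.74 CPM, a ratio of 2.75-fold (2.06 to 3.70). The odds ratio between Ly6c2 and F13a1 was 1.23 (0.799 to 1.90), so a different change of the 2 was not detectable. By total counts both kept a positive ratio, 0.94 and 0.64, but neither was called.

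The late granule genes went the other way. Ltf, which encodes the iron-binding lactoferrin, spans 111019271 to 111042767 on the plus strand of chromosome 9. The WT library held 121 of its reads and the miR-146a-/- library 6, or 2.60 and 0.359 CPM. The WT library was 6.97-fold higher, with an interval from 3.23 to 20.1 that is wide because of the 6 counts. Ngp, which encodes a cathelicidin-related granule protein, lies on chromosome 9 (110419747 to 110423012, plus strand). Ngp had 211 WT counts and 29 miR-146a-/- counts. Its levels were 4.53 and 1.73 CPM, 2.60-fold higher in WT (1.77 to 3.99). The log2 ratios of -2.80 for Ltf and -1.38 for Ngp kept their sign and their call under every scaling tried. Beyond 2-fold, Ltf was still called and Ngp was not. Ltf differed more than Ngp, with an odds ratio for Ngp over Ltf of 2.77 (1.09 to 8.38).

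**Figure D2:**
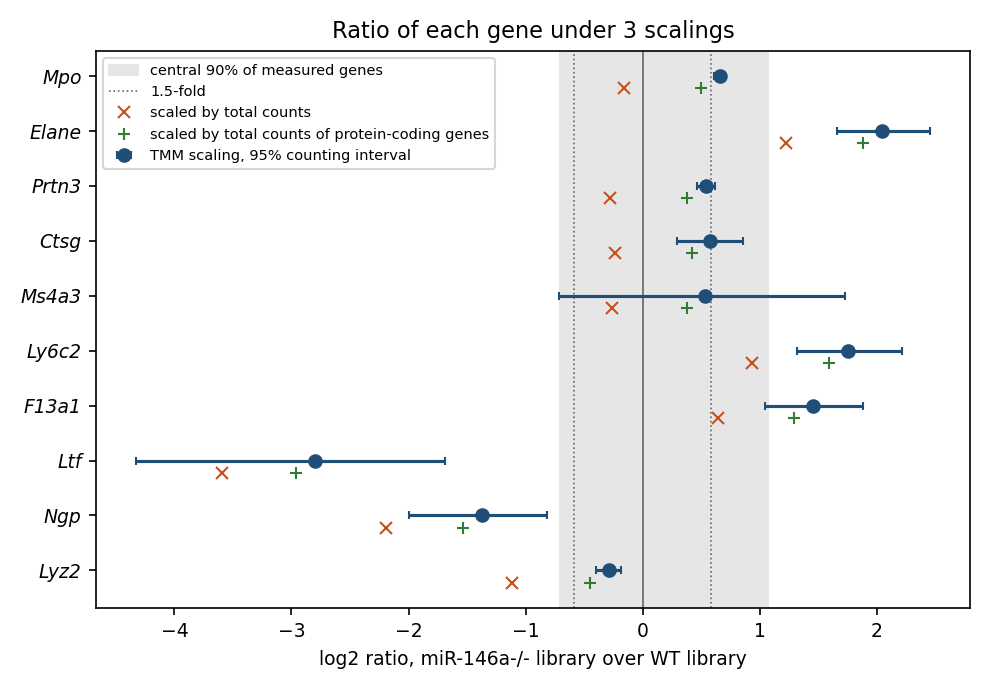
Log2 ratio of each gene, miR-146a-/- library over WT library, with its 95% counting interval under TMM scaling (circles) and the values scaled by total counts (crosses) and by protein-coding totals (plus signs); the grey band holds the central 90% of measured genes, from -0.70 to 1.07, and dotted lines mark 1.5-fold. Elane, Ly6c2 and F13a1 lie right of 0 and Ltf and Ngp left of it under all 3 scalings, whereas Mpo, Prtn3, Ctsg and Ms4a3 cross 0 by total counts.

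Lyz2, the lysozyme gene of monocytes, macrophages and granulocytes whose locus drives the LysM-Cre line, was abundant and differed little. It spans 117277331 to 117282321 on the minus strand of chromosome 10. Lyz2 had 2933 and 860 counts, or 63.0 and 51.5 CPM, 1.22-fold higher in WT (1.13 to 1.32) and not called. Its paralog Lyz1 is 96.0% identical over 1262 aligned bases but had 2 and 1 counts. By total counts Lyz2 was at -1.11 and was called lower.

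The 4 primary granule genes were also compared with Ltf and Ngp within each library, a measure that by construction no scaling enters. Summed over the 4 genes, primary granule counts were 13897 in WT and 7762 in miR-146a-/-, while Ltf and Ngp together gave 332 and 35. There were thus 41.9 primary granule counts for each late granule count in WT and 222 in miR-146a-/-, an odds ratio of 5.30 (3.73 to 7.75). Without Mpo the odds ratio was 5.14 (3.61 to 7.54), and against Ngp alone it was 4.06 (2.74 to 6.22). Against Ltf alone it was 11.3 (5.02 to 31.3). Lyz2 lay between the groups. The odds ratio was 1.90 (1.76 to 2.07) for the primary granule genes over Lyz2 and 2.78 (1.94 to 4.09) for Lyz2 over the late genes. Ly6c2 and F13a1 together exceeded the primary granule genes by 1.95 (1.58 to 2.42) on the same measure. These intervals cover counting error alone. The contrast is that of the named genes and was not seen at this size in the longer lists. Summed counts had log2 ratios of 0.29 for the other early granule list and 0.15 for the other late granule list. Their medians were -0.01 and -0.05.

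**Figure D3:**
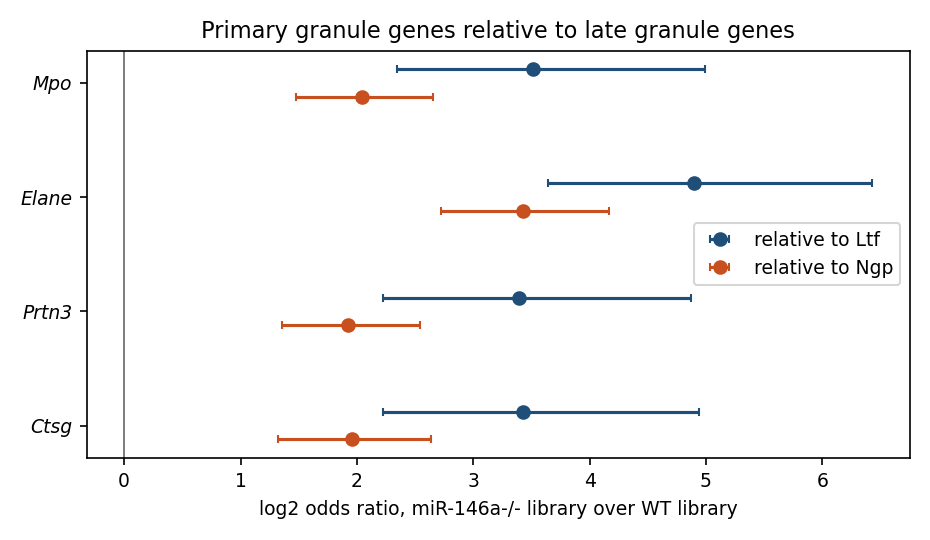
Log2 odds ratio of each primary granule gene relative to Ltf (blue) and to Ngp (orange), miR-146a-/- library over WT library, with exact 95% intervals for counting error. All 8 intervals lie right of 0, from 1.92 for Prtn3 relative to Ngp to 4.89 for Elane relative to Ltf.

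Levels of different genes were compared per kilobase of annotated exon. In WT the order, in normalised CPM per kilobase, ran from Mpo (59.5) through Prtn3 (49.6) and Lyz2 (47.8) to Ctsg (6.27), Ngp (3.71), Elane (1.96), Ltf (0.753), Ly6c2 (0.611), F13a1 (0.309) and Ms4a3 (0.216). Counting intervals overlapped for the neighbours Prtn3 and Lyz2, Ltf and Ly6c2, and F13a1 and Ms4a3. In miR-146a-/- the same scale gave Mpo (94.0), Prtn3 (72.2), Lyz2 (39.1), Ctsg (9.38), Elane (8.15), Ly6c2 (2.07), Ngp (1.42), F13a1 (0.852), Ms4a3 (0.318) and Ltf (0.104). Here Ctsg and Elane, Ly6c2 and Ngp, Ngp and F13a1, and Ms4a3 and Ltf overlapped. Ltf thus went from the seventh level to the last, and Elane from below Ngp to above it. Elane was far below Prtn3 in both libraries although the genes are adjacent. Per kilobase of the longest transcript, Prtn3 was above Mpo in both, at 83.9 and 74.1 in WT and 122 and 117 in miR-146a-/-, so the order of these 2 depends on the length used. On that scale F13a1 (1.45) was also above Ngp (1.42) in miR-146a-/-. The longest protein-coding transcript of Ly6c2 has 822 bases, against 2740 of annotated exon. The places of Ly6c2 and the genes near it in the order therefore also depend on the length used.

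Mpo, Prtn3 and Lyz2 made up nearly all reads of the group. Of 17356 counts in WT, Mpo held 54.7%, Prtn3 23.1% and Lyz2 16.9%. Of 8858 counts in miR-146a-/-, they held 60.7%, 23.6% and 9.71%. The share of Elane went from 0.519% (0.417 to 0.637%) to 1.51% (1.27 to 1.79%). That of Ltf went from 0.697% (0.579 to 0.832%) to 0.0677% (0.0249 to 0.147%). All 10 together took 0.0608% of the protein-coding reads of WT and 0.0774% of those of miR-146a-/-.

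Other genes of early granules and progenitors did not follow the primary granule genes as a list. Of 20 genes, 18 were measured: 3 were higher and 0 lower, against 5.35% and 1.53% of all measured genes. The other 15 were neither, and 9 of the 18 ratios were positive and 9 negative. Their median was -0.01, and that of all measured genes also -0.01. Among the higher genes were Igsf6 (18 and 31 counts, log2 ratio 2.22) and Srgn, which encodes serglycin, the proteoglycan core to which granule proteases bind (0.72). At the other end were Slpi, an inhibitor of elastase (-0.62), Cst7, which encodes cystatin F (-0.59), and Serpinb1a, an inhibitor of neutrophil serine proteases (-0.26), none of them called. Prss57, a further granule protease gene of chromosome 10, was at -0.10 with 588 and 197 counts. Ctsc, whose product cleaves the pro-forms of elastase, proteinase 3 and cathepsin G into active enzymes, was at 0.03.

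Late granule and mature neutrophil genes were mostly at low counts. Of 20 listed genes, 13 were measured: 0 were higher and 1 was lower, against 5.35% and 1.53% of all measured genes. The other 12 were neither, and the median was -0.05. That median depended on the genes kept: it was -0.32 with no filter and 0.26 with at least 200 summed counts. The latter filter left only Padi4, Anxa1 and Pglyrp1. The mean of the 13 measured genes was -0.33, and by total counts their median was -0.87. The lower gene was S100a9, a calcium-binding protein abundant in neutrophils, with 152 and 23 counts (-1.24, -1.95 to -0.61). Camp, the cathelicidin gene, had 38 and 4 counts (-1.70) and Chil3 29 and 4 (-1.32), with intervals too wide for a call. The highest were Cybb (0.80), Pglyrp1 (0.69) and S100a8 (0.30), also not called. Of the 8 neutrophil markers, the summed level was 42.8 CPM in WT and 61.7 in miR-146a-/-, most of it from Itgam. Without Itgam, a choice made after the values were seen, it was 6.87 in WT and 4.85 in miR-146a-/-. S100a9 gave 152 of the 320 counts behind that WT sum and 23 of the 81 in miR-146a-/-. No listed marker had 0 counts in both libraries, and the part of mature neutrophils in the Ltf and Ngp ratios was not tested.

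Markers of other mature cells are given beside these values. The 8 basophil, mast cell and eosinophil markers summed to 4.76 CPM in WT and 6.34 in miR-146a-/-. In that list Prss34 and Prg3 were at 0 in miR-146a-/-, with 14 and 1 counts in WT. Of its 4 measured members none was called, against 5.35% higher and 1.53% lower of all measured genes. Cpa3 (105 and 60 counts, log2 ratio 0.67), Hdc (25 and 23, 1.33) and Mcpt8 (22 and 13, 0.70) had positive ratios, and Prg2 (35 and 7, -0.82) a negative one. The 6 macrophage markers summed to 2.32 and 2.57. Of these, 4 were measured and none was called, against the same 5.35% and 1.53%. Vcam1 (32 and 16 counts, 0.47) and C1qb (23 and 13, 0.64) had positive log2 ratios, C1qc (20 and 3, -1.19) and Adgre1 (17 and 4, -0.58) negative ones. The 6 plasma cell markers summed to 476 and 396, mostly from Ighm (13572 and 4041 counts) and Igkc (3855 and 639). All 6 were measured: 1 was higher and 2 were lower, against 5.35% and 1.53% of all measured genes. Jchain (271 and 38 counts, log2 ratio -1.35) and Igkc (-1.11) were lower, and Igha (1 and 116 counts, 7.54) was higher. Their part in the ratios of the 10 genes was not tested.

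Other monocyte genes had mostly positive ratios. Of 20, 19 were measured: 3 were higher and 0 lower, against 5.35% and 1.53% of all measured genes. The other 16 were neither, and the median was 0.62 against -0.01 for all measured genes. The 3 highest were Klf4, a transcription factor of monocyte differentiation that is also an immediate early gene (2.52), Ms4a4c (27 and 22 counts, 1.16, not called) and the chemokine Ccl9 (1.09). Ms4a6c was the third gene called (0.88). The lowest were the fractalkine receptor Cx3cr1 (-0.37), the chemokine receptor Ccr2 (-0.29) and S100a4 (-0.21). By total counts the median was -0.19.

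Factors and receptors that drive granulocyte and monocyte fate were listed too. Of 14 genes, 13 were measured: 1 was higher and 0 lower, against 5.35% and 1.53% of all measured genes. The other 12 were neither, and the median was 0.46 (-0.36 by total counts). The called gene was again Klf4, which stands in both lists, as do Csf1r and Irf8. Csf1r, the M-CSF receptor, was at 0.72 and Csf2ra, a chain of the GM-CSF receptor, at 0.67, both not called. The lowest were Csf3r, the G-CSF receptor (-0.18), Gfi1, a repressor needed for neutrophil development (-0.13), and Cebpa, which starts granulocyte commitment (0.06). Spi1, which encodes PU.1, had 4695 and 2119 counts (0.33, 0.26 to 0.41). Cebpe, the factor of late granule genes, had 8 and 6 counts, too few for a ratio.

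**Figure D4:**
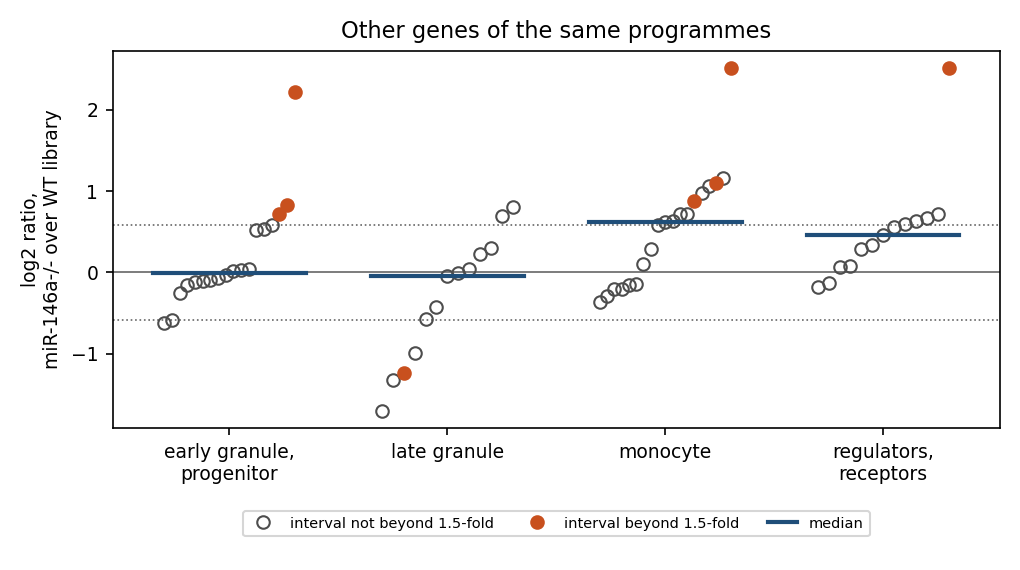
Log2 ratio, miR-146a-/- library over WT library, of the measured genes in 4 lists that hold none of the 10 genes: 18 early granule and progenitor genes, 13 late granule genes, 19 monocyte genes and 13 regulators and receptors. Filled circles are genes whose 95% counting interval lies beyond 1.5-fold, blue bars are medians, and the medians lie at -0.01, -0.05, 0.62 and 0.46 from left to right.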

How the data were processed

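The authors deposited raw read counts per Ensembl gene for both libraries, from total RNA depleted of ribosomal RNA. Per the file headers, junction reads were placed on the genome and duplicates flagged. STAR 2.5.3a, Salmon 0.9.0 and mm10 are named, with no role, per the submitters' processing notes. How reads were counted, with which strand setting and with or without duplicates, is not stated in the sources used here. Names, positions and exon lengths came from GENCODE M21 (GRCm38, the assembly of mm10), which named 37693 of 39017 identifiers.

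TMM factors from edgeR 4.0.16, run in R 4.3.3 on 13880 genes with at least 20 summed counts (called measured), gave the effective library sizes. One library per genotype leaves no residual degrees of freedom, so no test was run. To form log2 ratios 0.5 counts, scaled by library size, were added. Intervals are exact Clopper-Pearson (95%) for ratios and shares, exact conditional for odds ratios and exact Poisson for levels (scipy 1.17.1). They describe counting error alone and treat reads as independent. PCR reads with no molecular identifiers are not independent, so the intervals can be too narrow. Motif shares are over all RefSeq windows, and for 2 genes with several starts the first listed was used.

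The genes named are the 10 members, their paralogs and neighbours, the 3 highest and lowest of each list, and others chosen after their values were seen. The members and lists were chosen with earlier results of these data known. Alternatives were other scalings, count filters, prior counts, thresholds and an adjustment for exon length. Some genes of the lists are counted in the totals but are not reported here by name.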

Additional observations from a re-analysis of the deposited data

How the results depend on the processing

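Scaling mattered most. By total counts 1 gene was called higher (Elane), and Mpo (-0.16), Prtn3 (-0.28) and Ctsg (-0.24) changed sign. The same setting put the medians at -0.20 for primary granule genes, 0.79 for monocyte genes, -0.19 for the other monocyte list and -0.36 for regulators, with 140 genes of all measured higher and 7077 lower. By protein-coding totals 574 genes were lower and the primary granule median was 0.46. Requiring at least 200 summed counts left 6 of the 10 genes, of which 2 were higher and 1 was lower, with 491 and 130 of 10730 genes. With no filter 322 of 20304 genes were lower and the primary granule median was 0.55. After adjustment for exon length 133 of 13880 genes were lower, that median was 0.76, and Prtn3 was also called. Beyond 2-fold, stricter by construction, 1 of the 10 genes was lower, with 294 and 42 of all genes higher and lower. The mean of the primary granule genes was 0.96 in place of the median. The primary to late granule contrast was 3.49 (log2) with Ltf alone, against 2.41. DESeq2 1.42.0 size factors, upper-quartile scaling and a prior count of 5 left all 10 ratios within their intervals. For the other settings the cause was not tested. No paired analysis was possible because each genotype has 1 library. Depth limited Ms4a3 and Ltf most, with 29 and 127 summed counts.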

Other observations

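Genes that lie beside the 10 or share sequence with them were mostly at low counts. Lpo and Epx, peroxidase genes related to Mpo, had 0 and 15 counts in WT and 1 and 2 in miR-146a-/-. Cfd, which follows Elane by 2638 bases, had 1 count in each library, although the Prtn3 and Elane genes before it were read. Gzmb and Mcpt8, serine protease genes related to Ctsg, had 9 and 22 counts in WT and 13 and 13 in miR-146a-/-. Of the 5 measured genes of that list Gzmb was the one called (higher, log2 ratio 1.93, 0.67 to 3.42), at low counts. Of all measured genes 5.35% were called higher and 1.53% lower. Klhl18, 2914 bases from Ngp on the opposite strand, had 1367 and 699 counts. F13b, the partner chain of F13a1, had 0 in both.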
